A study of Homo sapiens with 4 samples.

Results

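SRRM1, SRRM2, SRSF11, RBM25 and PPIG encode nuclear proteins with arginine-serine rich stretches that take part in the splicing of pre-mRNA. These 5 genes are described here among 958 annotated genes that held a peak of captured RNA in at least 1 of 3 pull-downs. They were picked because their gene spans carried such peaks, so the number, place, strength and sharing of the peaks are a description and not a test. All 5 genes had a peak in at least 1 list, and none is left out.

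The RNA came from RD, an established line of embryonal rhabdomyosarcoma cells, a tumour of the skeletal muscle lineage. Biotinylated antisense oligonucleotides against exon 2 of ZNF609, the exon that forms the circular RNA circ-ZNF609, were used in an even and an odd set, and oligonucleotides against the bacterial LacZ mRNA served as the control. The labels name no genotype, drug or time that differs between the pull-downs, and all of them come from 1 cell line. Each of the 3 probe sets gave 1 library and 1 list of peaks, so no value has a replicate error and the probe sets were not tested against each other. The total lysate was not analysed here. Of 10 muscle lineage markers, 4 held a peak in some list, but a peak list does not measure expression, and MYOD1 and MYOG, which define the lineage, held none.

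Proteins of the SR family bind RNA through an RNA recognition motif and bind other splicing factors through their arginine-serine domain, which kinases of the CLK and SRPK families phosphorylate. Together with SR-related proteins, they help the U1 and U2 particles to recognise exons, and many of them gather in nuclear speckles. The transcripts of SR genes are themselves known for retained introns and for exons that lead to decay of the RNA. RBM25 is a relative of the yeast U1 component Snu71. SRSF11 is an SR protein that binds U2AF. SRRM1 is a splicing coactivator found with the exon junction complex, SRRM2 is a scaffold of nuclear speckles, and PPIG is a cyclophilin, a prolyl isomerase, with an arginine-serine domain.

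The even list held 502 peaks with 482418 reads in them, the odd list 542 peaks with 279415 reads and the LacZ list 722 peaks with 219401 reads. The strength of a peak is the number of reads per bin of 170 bases, averaged over the bins joined into the peak, and it is not scaled to the size of the library. Strengths from different lists are therefore given side by side as unscaled values, and rank 1 is the highest strength within a list. The total depth of the libraries is unknown. ZNF609, the targeted gene, had 1 even, 3 odd and 0 LacZ peaks.

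The odd list held most of the peaks in the 5 genes. There were 16 odd, 8 even and 5 LacZ peaks. An odd peak was present in 5 of 5 genes, against 37.5% of the 958 genes. An even peak was present in 4 of 5, against 35.3%, with SRRM2 the gene without one. A LacZ peak was present in 2 of 5, RBM25 and SRRM2, against 53.3%. SRRM1, SRSF11 and PPIG were marked by even as well as odd probes and not by LacZ probes, a class that held 4.8% of the 958 genes. With peaks limited to p-values below 0.001, none of the 3 genes remained in it, since 0 of their even peaks passed. RBM25 had peaks in all 3 lists, as did 4.91% of the genes, and SRRM2 had odd and LacZ peaks, as did 6.47%. These shares are the background for genes that were chosen on the same peaks, and nothing is read from the difference.

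**Figure D1:**
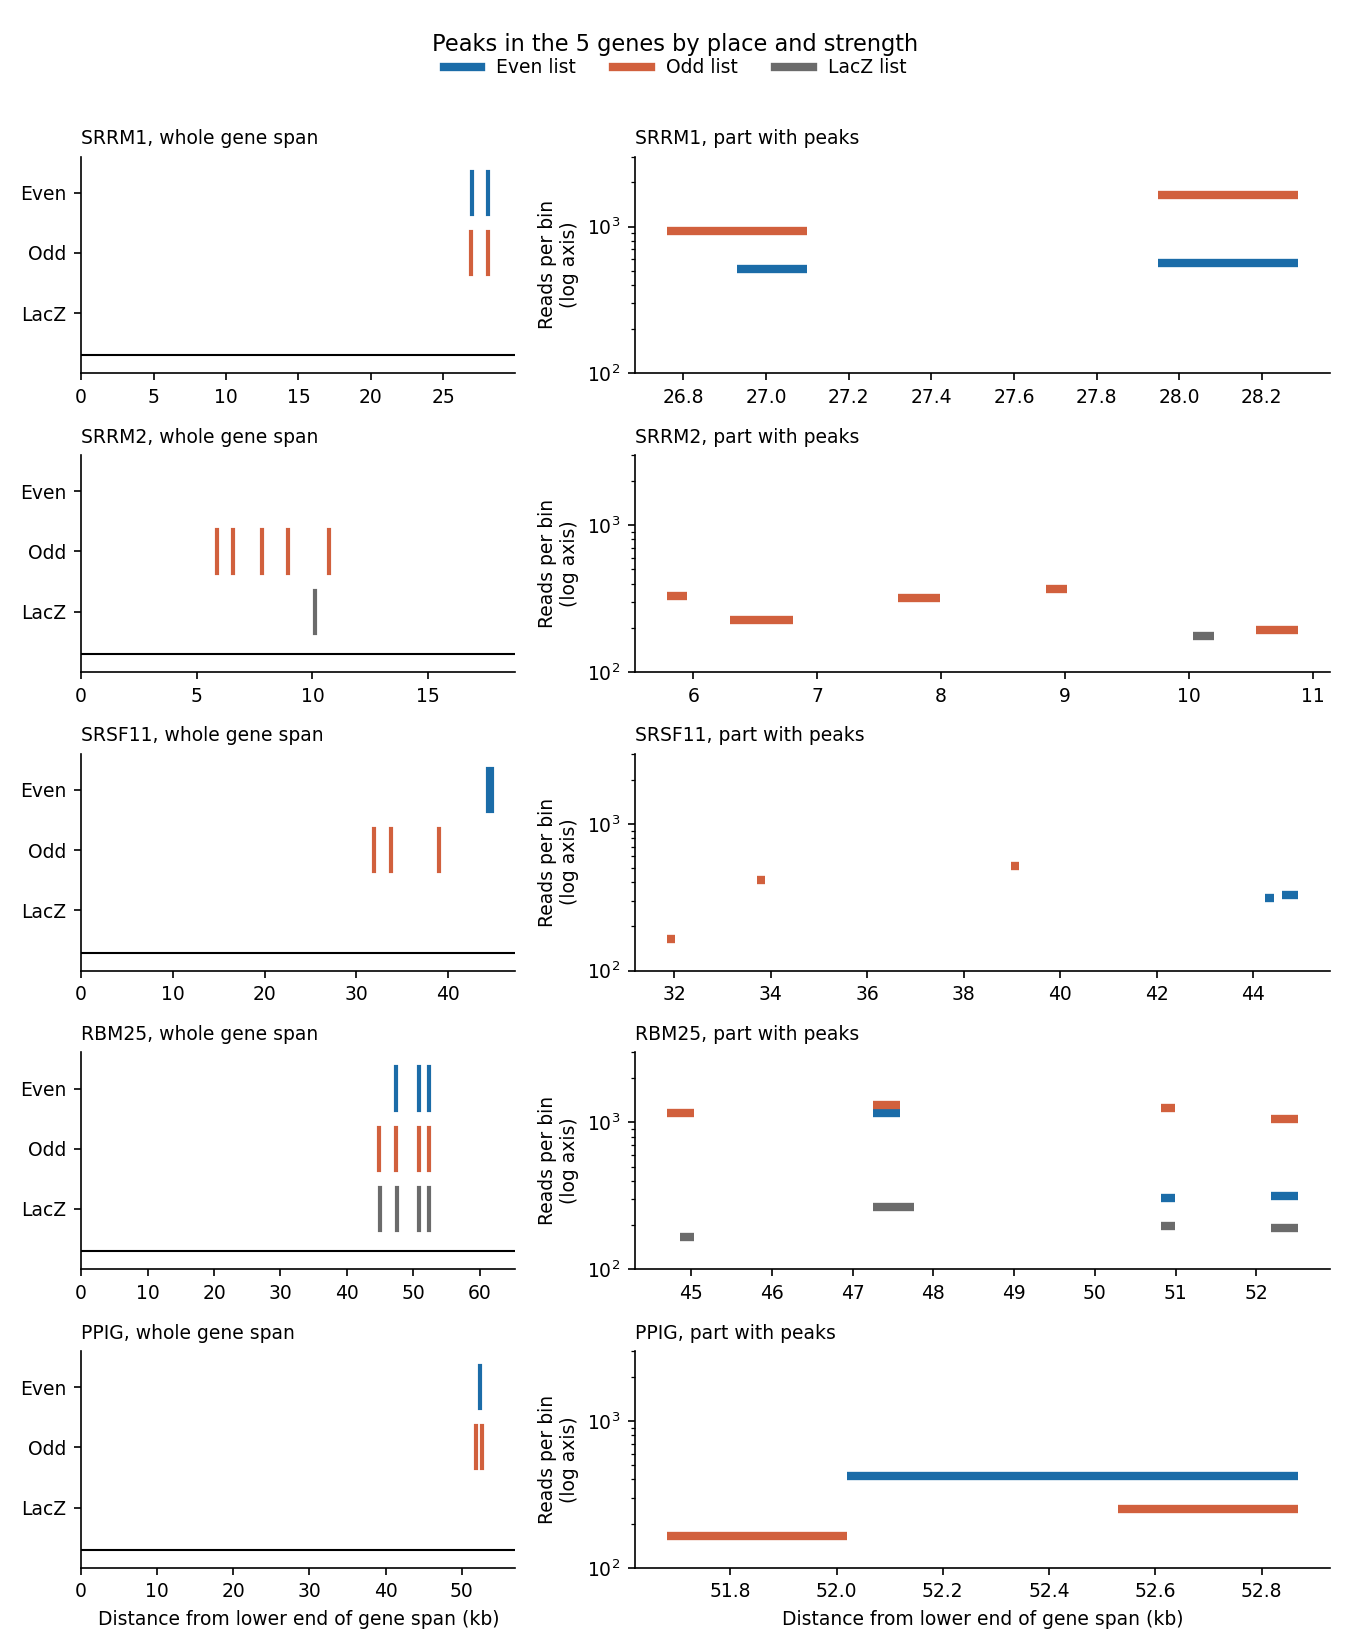
Peaks in each gene, over the whole gene span (left) and over the part that holds peaks (right, reads per bin of 170 bases on a log axis), against distance in kb from the lower end of the gene span; blue is the even, orange the odd and grey the LacZ list, and the length of a bar on the right is the width of the peak. RBM25 has peaks of all 3 lists at 3 places and odd and LacZ peaks at the remaining one, SRRM1 has even and odd peaks at 2 places, SRSF11 has odd and even peaks at different places, and SRRM2 has no even peak.

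RBM25 carried more peaks than the other 4 genes, and it was the gene in which the control probes captured the same places as the ZNF609 probes. On GRCh38, RBM25 (gene ID 58517) extends over chromosome 14 from 73058534 to 73123899. Its 11 peaks, at rank 4 of the 958 genes by number of peaks, lay at 4 sites within 7820 bases, 12.0% of the span, and the first began 44697 bases into the gene. Site 1 was at 73103231 to 73103570, site 2 at 73105781 to 73106290, site 3 at 73109351 to 73109520 and site 4 at 73110711 to 73111050. LacZ and odd peaks were present at all 4 sites. Even peaks were present at sites 2, 3 and 4.

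At RBM25 site 1 there were 1153 reads per bin in the odd peak and 166 in the LacZ peak. At site 2 the even peak had 1151.5, the odd peak 1318 and the LacZ peak, which was 1 bin wider, 264.3 reads per bin. At site 3 the even, odd and LacZ peaks had 305, 1259 and 198 reads per bin. The odd values of RBM25 were thus similar along the gene, whereas the even value at site 2 stood above the even values at sites 3 and 4. At site 4 the values were 315, 1060.5 and 190 reads per bin. Within the odd list these peaks ranked 11, 6, 9 and 14 of 542, so all 4 were among the strongest of that list. The even peaks at sites 2, 3 and 4 ranked 29, 239 and 229 of 502, and the LacZ peaks ranked 210, 93, 150 and 163 of 722.

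A ratio between sites of 1 gene within 1 list does not depend on the depth of the library. In RBM25 the ratio of site 2 to site 3 was 3.78 (exact Clopper-Pearson 95% interval 3.35 to 4.27) in the even list, 1.05 (0.98 to 1.12) in the odd list and 1.34 (1.14 to 1.57) in the LacZ list. The ratio of site 3 to site 4 was 0.97 (0.84 to 1.11) in the even, 1.19 (1.11 to 1.27) in the odd and 1.04 (0.87 to 1.24) in the LacZ list. For site 2 over site 3 the even interval thus lay above those of both other lists. Site 2 was singled out by its even value, so this describes the 3 libraries and is no test between probe sets. For site 2 over site 3 the odd and LacZ intervals did not overlap each other either. The ratio of site 3 to site 4 stayed between 0.97 and 1.19 in the 3 lists. These intervals cover the counting error of reads, which are not independent molecules after amplification, and there was no replicate library. The LacZ peak at site 2 includes 1 bin that the odd and even peaks lack.

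The deposited p-values ordered the RBM25 sites differently from the reads. In the odd list, sites 3 and 4 had p-values of 3.84e-11 and 1.17e-09 and were rank 1 and rank 2 of the list by p-value. Site 1, with a similar number of reads, had 0.000217 and was at rank 69. The unnamed score that the authors deposited for each peak moved with this. It was 0.00293 at site 3 and 0.00271 at site 4, near the odd list's median of 0.00239, and 0.0133 at site 1. Site 2 lay between these, with an odd score of 0.00936 and rank 18 by p-value. At sites 3 and 4 the score was the same in the even, odd and LacZ lists. The meaning of the score is unknown, and its part in the p-values was not tested. At site 1, where the even list had no RBM25 peak, the weakest 1-bin even peaks with a like score (within 5 steps of the score's grid) had 515 reads per bin, over 3 such peaks, the weakest of them in SRRM1. An even signal below that level could have gone unlisted.

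SRSF11 was captured by the even and the odd probes and not by LacZ probes, and the ZNF609 probe sets marked different parts of the gene. SRSF11 (gene ID 9295) extends over chromosome 1 from 70205696 to 70253052. The odd probes gave 3 peaks of 1 bin each. The first, at 70237541 to 70237710, had 165 reads per bin, the next, at 70239411 to 70239580, had 415, and the last, at 70244681 to 70244850, had 514. Of the even peaks, the one at 70249951 to 70250120 had 313 reads per bin and the one at 70250291 to 70250630 had 328. No SRSF11 peak of one set overlapped a peak of the other, and 5100 bases separated the last odd peak from the first even peak. The strongest odd peak ranked 61 of 542 and the strongest even peak 219 of 502. Of the SRSF11 peaks, 1 odd and 0 even had a p-value below 0.001.

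For SRSF11, the lists without a peak at a place can be set beside the weakest 1-bin peaks that they called at a like score. At the strongest odd place, with 514 reads per bin, the weakest such even peak had 403 reads per bin, over 8 peaks, and the weakest LacZ peak 123, over 10 peaks. At the even places the weakest such odd peaks had 227 and 204 reads per bin, against even values of 313 and 328. The SRSF11 values of one probe set thus lay above the weakest of these peaks in the other list, without any scaling of the libraries. Those peaks may have scores up to 5 steps below that of the place, so a signal of like size could still have gone unlisted. Whether weaker reads were present is not shown by the lists.

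SRRM1 was captured at 2 places by both ZNF609 probe sets, more strongly in rank by the odd set, and held no LacZ peak. SRRM1 (gene ID 10250) extends over chromosome 1 from 24643302 to 24673281. At the first place the odd peak, at 24670061 to 24670400, had 926.5 reads per bin, and the even peak, at 24670231 to 24670400, had 515. At the second, at 24671251 to 24671590, the peaks covered the same bases, with 1630.5 odd and 562.5 even reads per bin. By strength the odd peaks ranked 19 and 5 of 542, and the even peaks 124 and 110 of 502. Both places lay within 1530 bases, 5.1% of the SRRM1 span, and 1691 bases remained after the last peak.

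Within the odd list the second SRRM1 place was 1.76 times as strong as the first (exact 95% interval 1.66 to 1.86), and within the even list 1.09 times (0.98 to 1.21). The odd peak at the first place is 1 bin wider than the even one, so this pair of ratios does not rest on the same bases. The weakest 1-bin LacZ peaks with a like score had 85 reads per bin for the first place and 101 for the second. At the first place the odd and even scores differed (0.00868 and 0.0126), so the range of like scores was wider there. The p-values of the even SRRM1 peaks were 0.00711 and 0.00156. With peaks limited to p-values below 0.001, both odd SRRM1 peaks were left and 0 even peaks, so that the gene then had no place shared by the probe sets.

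SRRM2 was marked by the odd probes at 5 places within 5100 bases, 27.2% of the span, and held no even peak. SRRM2 (gene ID 23524) extends over chromosome 16 from 2752638 to 2771412. Its 5 odd peaks began at 2758421, 2758931, 2760291, 2761481 and 2763181, with 328, 225.7, 317.5, 368 and 193.5 reads per bin. They ranked between 124 and 321 of 542, so they were of middling strength. The single LacZ peak, at 2762671 to 2762840, had 176 reads per bin and ranked 201 of 722. It lay in a gap between the last odd peaks and overlapped neither of them, so that no listed peak in SRRM2 was shared between lists.

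At the 5 odd places of SRRM2, the weakest 1-bin even peaks with a like score had 314, 192, 246, 270 and 151 reads per bin. Each odd value lay above the weakest of these even peaks, by 14 reads per bin at the first place, a small margin. These even peaks may have scores up to 5 steps below that of the place. Over the 5 places the weakest value was higher where the score was higher. An even signal as strong as the odd one could therefore still have gone unlisted, above all at the first place. At the LacZ place the reverse held: its 176 reads per bin lay below the weakest 1-bin peaks with a like score in the even list (314) and the odd list (270). An even or odd signal of that size there could have gone unlisted. The lowest p-value of an odd SRRM2 peak was 0.00326, and 0 of the 5 were below 0.001. The peaks together with the LacZ peak covered 1700 bases, 9.05% of the span, against 2.08% to 2.27% in the other 4 genes taken with their peaks of all lists, of which SRSF11 had 2.15%.

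PPIG had the fewest peaks of the 5 genes, all near 1 end of the span. PPIG (gene ID 9360) extends over chromosome 2 from 169584351 to 169641406. The even peak, at 169636371 to 169637220, was 850 bases wide, the widest in the 5 genes, with 421.8 reads per bin at rank 164 of 502. An odd peak at 169636881 to 169637220 lay inside it, with 250 reads per bin at rank 230 of 542. A further odd peak, at 169636031 to 169636370, ended at the base before the even peak began and had 163.5 reads per bin. None of the PPIG peaks had a p-value below 0.001. PPIG was the 1 gene with an overlapping pair of even and odd peaks in which the even value was the higher. The LacZ list held no PPIG peak, and its weakest 1-bin peaks with a like score had 55 reads per bin at the shared place. The even and odd scores differed there (0.00433 and 0.00643), which widened the range of like scores.

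**Figure D2:**
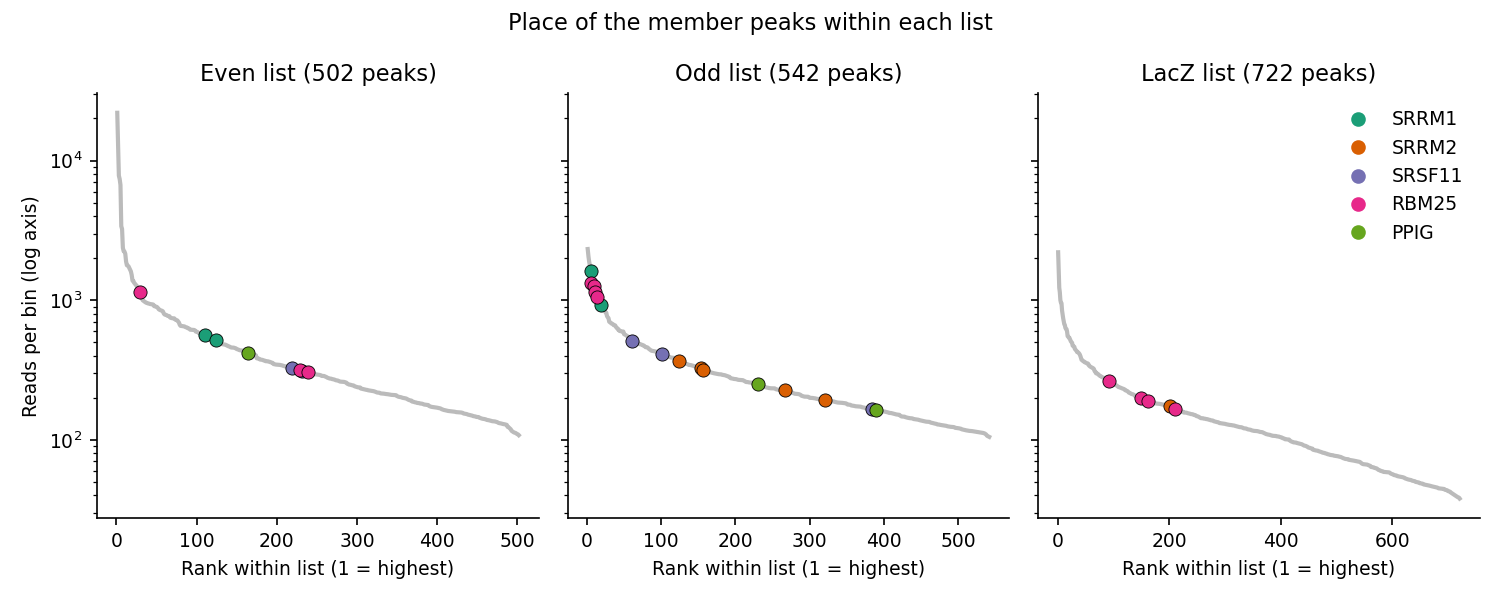
Reads per bin of 170 bases (log axis) against rank within the list for all peaks of the even, odd and LacZ lists (grey line), with the peaks of the 5 genes as coloured points. In the odd list the RBM25 and SRRM1 peaks lie between rank 5 and rank 19, and in the even list the strongest peak of the 5 genes, in RBM25, is at rank 29.

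As a share of all reads in the peaks of a list, the 5 genes held 6.35% (exact Clopper-Pearson 95% interval 6.26 to 6.44) in the odd list, 1.65% (1.61 to 1.69) in the even list and 0.781% (0.744 to 0.818) in the LacZ list. RBM25 alone held 2.98% of the odd, 0.671% of the even and 0.701% of the LacZ reads in peaks. It was the first of 359 genes in the odd list by reads, 29 of 338 in the even list and 19 of 511 in the LacZ list. SRRM1 held 1.83% in the odd list, where it was the gene at rank 7, and 0.34% in the even list. For SRRM2 the odd share was 0.857% and the LacZ share 0.0802%.

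For SRSF11 the shares were 0.392% in the odd and 0.201% in the even list. PPIG went the other way, with 0.296% in the odd and 0.437% in the even list. A share depends on what else a list holds: without the peaks of ANP32B, a gene with many even reads, the share of the 5 genes in the even list was 2.02%, and it remained below the odd share.

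**Figure D3:**
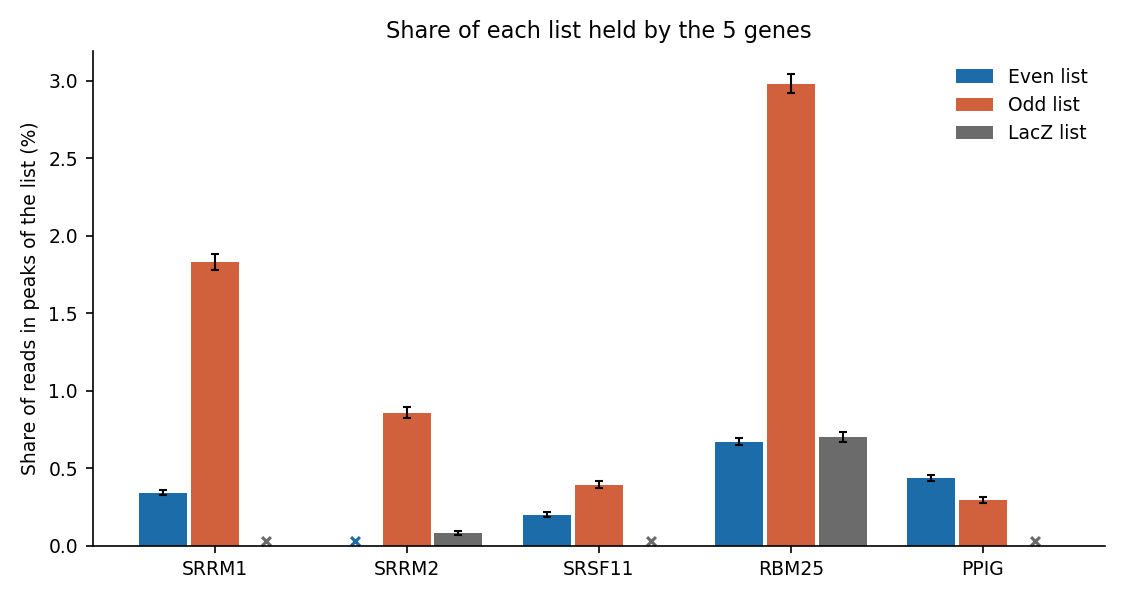
Share of the reads in peaks of each list (%) held by each of the 5 genes, with bars for the even, odd and LacZ lists, exact 95% binomial intervals for counting error as error bars, and a cross where the list has no peak in the gene. The odd bar is the highest in SRRM1, SRRM2, SRSF11 and RBM25, with RBM25 at 2.98%, and the even bar is the highest in PPIG, at 0.437%.

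Peaks that cover identical bases in 2 lists allow the genes to be placed against other genes captured by the same probe sets. Even and odd shared 52 such peaks, and their unscaled ratio of odd to even reads per bin had a median of 0.75, with a middle range from 0.48 to 1.02. RBM25 and SRRM1 held the 3 highest ratios of these 52. RBM25 site 3 had a ratio of 4.13 (3.64 to 4.69), site 4 of 3.37 (3.08 to 3.69) and the second SRRM1 place of 2.90 (2.71 to 3.10). RBM25 site 2, with 1.14 (1.08 to 1.21), was at rank 8 and also above the middle range, but well below sites 3 and 4 of the same gene.

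Against the control, 46 peaks were identical in the odd and LacZ lists, with a median odd to LacZ ratio of 2.57. RBM25 sites 3 and 4 had 6.36 (5.47 to 7.42) and 5.58 (5.0 to 6.24), at ranks 8 and 10 of 46. For even to LacZ the median over 43 identical peaks was 2.44, and the same RBM25 sites had 1.54 (1.28 to 1.85) and 1.66 (1.46 to 1.89), at ranks 31 and 30. At these 2 sites RBM25 was therefore above the median for the odd probes and below it for the even probes. Sites 1 and 2 had no peak identical to a LacZ peak and are left out of these ratios. At site 2, the strongest even site of RBM25, the even peak had 1151.5 and the odd peak 1318 reads per bin. The LacZ peak there, 1 bin wider, had 264.3. SRRM1, SRRM2, SRSF11 and PPIG had no peak identical to a LacZ peak.

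**Figure D4:**
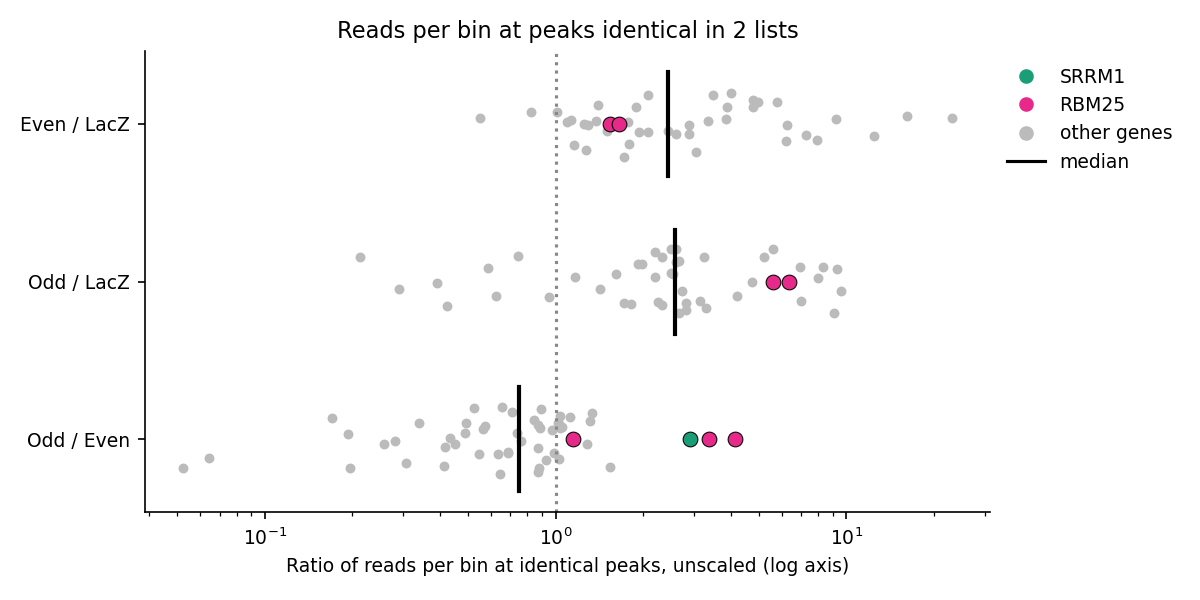
Unscaled ratio of reads per bin (log axis) at peaks covering identical bases in 2 lists, for odd over even (52 peaks), odd over LacZ (46) and even over LacZ (43); grey points are other genes, coloured points are RBM25 and SRRM1, the black line is the median and the dotted line a ratio of 1. The odd over even ratios of RBM25 sites 3 and 4 and of the second SRRM1 place lie to the right of all other points of that row.

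Of the 8 even peaks in the 5 genes, 6 overlapped an odd peak, against 18.5% of all even peaks, and 3 overlapped a LacZ peak, against 14.7%. Of the 16 odd peaks, 6 overlapped an even peak, against 17.3%, and 4 overlapped a LacZ peak, against 16.2%. Of the 5 LacZ peaks, 3 overlapped an even and 4 an odd peak, against 10.2% and 12.0%. All overlaps with LacZ peaks were in RBM25. Since the genes were chosen with these overlaps known, the counts describe them and support nothing further. Merged, the peaks formed 19 regions, against 1549 over all genes and places. Of the 19, 9 belonged to the odd list alone, against 25.8% of all regions, 2 to the even list alone, against 24.1%, and 1 to the LacZ list alone, against 38.7%. A further 3 regions were even with odd, in SRRM1 and PPIG, against 3.49%. In RBM25, 3 regions were in all lists, against 2.52%, and 1 was odd with LacZ, against 3.16%.

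Most peaks of the 5 genes had scores above the median of their list. The median score was 0.00767 for their even peaks against 0.00282 for the whole list, 0.00739 against 0.00239 in the odd list and 0.00957 against 0.00406 in the LacZ list. In the even list 7 of 8, in the odd list 14 of 16 and in the LacZ list 3 of 5 peaks were above the list's median score. Their strength was above the list's median in 8 of 8 even, 13 of 16 odd and 5 of 5 LacZ peaks. Where peaks of the 5 genes covered identical bases in different lists, their scores were equal, so the 3 lists are not separate observations of the score. The part of the score in these strengths was not tested.

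Along the direction of transcription, which the tables used gave for SRRM1, SRRM2, SRSF11 and RBM25, the middles of all 26 peaks lay between 31.3% and 94.5% of the gene span. All 7 even peaks, 9 of 14 odd peaks and 4 of 5 LacZ peaks lay past 66.7% of the span. In other protein-coding genes with a listed strand, 45.2% of 365 even, 53.3% of 426 odd and 50.8% of 498 LacZ peaks lay there. The 5 odd peaks of the 4 genes that lay before that point were those of SRRM2, as was the remaining LacZ peak. Exon, intron and UTR positions were not used here, and no sequence of a peak was read. No peak of the 5 genes lay in another annotated gene. Annotated pseudogenes carry the names of SRRM1 (3), SRSF11 (1) and PPIG (1), and 0 peaks lay in them, but reads that fit both a gene and its copy are uncertain.

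A wider list of 76 annotated genes of SR proteins, SR-related proteins and the kinases and helicases that act with them was then counted. The list was written with earlier results of these data known. In it, 22 genes had a peak in any list, 28.9%, against 4.22% of all protein-coding genes. Without the 5 genes above, these were 17 of 71, or 23.9%. The even list marked 10 of the 71, the odd list 7 and the LacZ list 7, or 14.1%, 9.86% and 9.86%, against 1.54%, 1.64% and 2.22% of protein-coding genes. The genes were not matched for expression or length. The share lay above that of protein-coding genes for the control probes as well as for the ZNF609 probes.

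Among the 71, SREK1, which encodes an SR-related regulator of splice sites, had the strongest peak. At chromosome 5, 66170461 to 66170970, its even peak had 1891.3 reads per bin at rank 12 of 502. The overlapping odd peak had 352 and the LacZ peak 55 reads per bin, at ranks 132 and 609. SREK1 thus stood high with the even probes, unlike SRRM1 and RBM25, which stood highest with the odd probes. DDX23, a helicase of the U5 particle, had 5 even peaks, the strongest with 1516 reads per bin at rank 19, 3 LacZ peaks of at most 116 reads per bin, and 0 odd peaks. DHX38, a helicase of the second step of splicing, had 2 even peaks, up to 778.5 reads per bin, and none in the other lists.

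SRSF4, an SR protein, resembled RBM25 in that the odd and LacZ lists marked the same places. It had 2 peaks in each, the strongest with 497 odd and 198 LacZ reads per bin, at ranks 67 and 150. RSRC2 had 3 odd peaks and 1 LacZ peak at different places. PNN, which encodes the exon junction protein pinin, was the 1 further gene of the 71 that both ZNF609 sets marked and LacZ probes did not, and its strongest values were 233 even and 139.5 odd reads per bin. Its even and odd peaks did not overlap.

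The odd list alone marked ACIN1, which encodes an exon junction factor, with 3 peaks of at most 326.7 reads per bin, the splicing regulator RBM5 with 2 peaks of at most 288.5, and SRSF9 with 1 peak of 183. The even list alone marked CDK11B (370), DDX46 (346), LUC7L3 (287) and PRPF38B (218), each given with its strongest reads per bin. RBM10 had an even peak of 123.5 and a LacZ peak of 150.3 reads per bin at different places. ZRANB2 had LacZ peaks alone, of at most 77.5 reads per bin. The remaining genes with a peak, named after their values were seen, were CDK11A in the even list and THRAP3 in the LacZ list. CDK11A and CDK11B are near-identical copies, and their reads may not be separable.

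**Figure D5:**
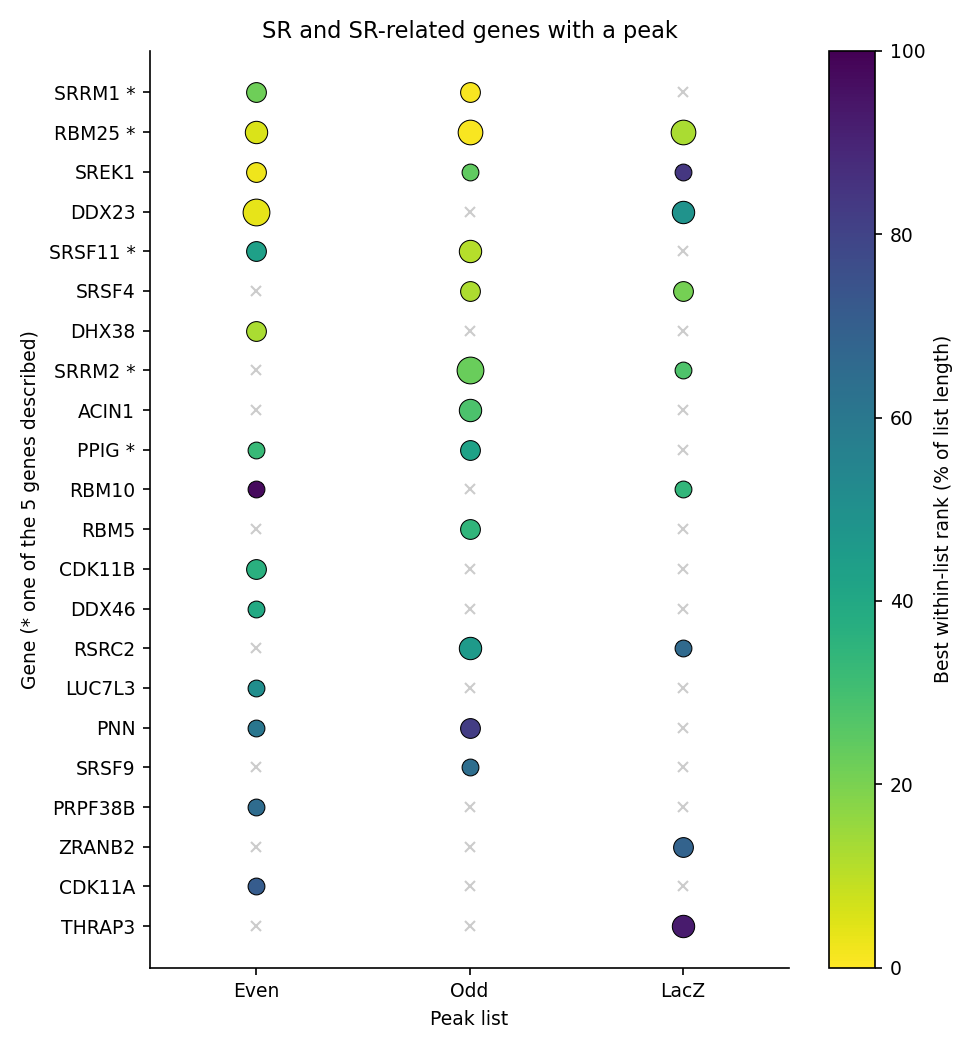
Genes of SR and SR-related proteins with a peak, by list; colour gives the best within-list rank as a percentage of the list length (yellow is strongest), the size of a point grows with the number of peaks in the gene, a cross marks a list without a peak, and a star marks the 5 genes described. SRRM1 and RBM25 are strongest in the odd list, and SREK1, DDX23 and DHX38 in the even list.

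Likeness to each gene was measured over the 3 lists as the Euclidean distance between best within-list ranks, each as a share of the list length and 1 where a list had no peak. RBM25 was nearest to CHAF1A (0.053) and PRRC2C (0.092), which also had peaks in all lists. CHAF1A ranked 14 of the even, 27 of the odd and 79 of the LacZ list. SRRM1 was nearest to EPB41L2 (0.09) and DES (0.113), SRSF11 to TNNT1 (0.038) and AHNAK (0.071), and PPIG to CKAP5 (0.048) and KNOP1 (0.064). CKAP5, the gene named in the title of the series, ranked 163 of the even and 204 of the odd list with no LacZ peak, beside 164 and 230 for PPIG. SRRM2 was nearest to RNF40 (0.112), which also had odd and LacZ peaks and no even peak, and ARHGAP39 (0.113).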

How the data were processed

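Peak lists of 3 pull-downs from RD cells were used, with 1 library each. The submitters' processing notes list STAR 2.5.2b, SAMtools, Picard, bedtools, Trimmomatic and bcl2fastq 2.0.2, with the build GRCh38, and give no roles or settings. The list names carry the name of the peak caller Piranha. The lists hold 8 columns without a header. The signal deposited by the authors, column 5, was read as reads per bin of 170 bases, since signal times bins was whole in all peaks (tolerance 0.02). Each p-value deposited by the authors lay under 0.01, and whether it is corrected for multiple testing is unknown. The score deposited by the authors, column 8, is unnamed and has 1 value per peak. From these values, a fixed value of 0.01, called the stand-in value, was read as lying in bins under 57 even, 22 odd and 169 LacZ peaks. The ZNF609 probe sets and LacZ were grouped by sample titles.

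Peaks were placed in the RefSeq gene spans of GRCh38.p14 with strand ignored, in every gene they overlapped. Coordinates count from 1. An overlap of 1 base or more counted as sharing. Of 77 symbols in the wider list, 76 were annotated, and 1 further gene is not reported here. A list's weakest 1-bin peaks at a like score were sought within 5 steps of the score's smallest unit, stand-in bins left out. Where the peaks at a place differed in score, the range ran from 5 steps below the lowest to 5 steps above the highest. Intervals are exact Clopper-Pearson 95% intervals, from scipy 1.17.1 under Python 3.11.15, and ratio intervals come from the same binomial. They cover counting error alone. The overlap counts were tested on simulated data, where 5 of 5 planted quantities were recovered. The genes and lists were chosen with earlier results of these data known. The named genes were the 5 genes, up to 20 genes with a peak from the wider list in order of their best rank, and the 2 nearest genes of each. The alternatives were each peak in 1 gene, stricter p-values, no stand-in bins, equal list lengths, no 1-bin peaks, stricter or looser overlap, and ranks by p-value.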

Additional observations from a re-analysis of the deposited data

How the results depend on the processing

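No paired analysis was possible because each probe set had 1 library, and for the same reason no replicate could be left out. The p-value limit removed most: below 0.001, 1 even, 3 odd and 1 LacZ gene of the 5 had a peak, with 3, 7 and 3 peaks. The shares of reads in peaks were then 1.25%, 11.4% and 0.978%, and the wider list of 76 genes, which includes the 5, had 4 even, 6 odd and 4 LacZ genes in place of 14, 12 and 9. The genes left among the 5 were RBM25 in each list and SRRM1 and SRSF11 in the odd list. Overlaps between even and odd fell to 3 peaks in each direction. Of the merged regions, 4 were then odd alone, and 0 each were even with odd, odd with LacZ, even alone and LacZ alone. Without 1-bin peaks, there were 5 even, 10 odd and 2 LacZ peaks, with shares of 1.78%, 7.26% and 0.657%. Then 4 of the 5 genes had an odd peak, since all 3 odd SRSF11 peaks were 1 bin wide. SRSF11 was thus no longer marked by both ZNF609 sets. In this setting 1 gene had a LacZ peak, the wider list had 5 LacZ genes in place of 9, and odd and LacZ overlapped in 2 peaks of each list. Regions there numbered 0 for odd with LacZ, 1 for even alone and 0 for LacZ alone.

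Without stand-in bins the even and odd shares were 1.95% and 6.91%, and the best LacZ rank of SRRM2 was 117. The 5 genes then had 4 LacZ peaks in place of 5, the one lost being that at RBM25 site 2. Regions in all lists numbered 2 in place of 3, and regions even with odd 4 in place of 3. With lists of equal length the odd and LacZ shares were 6.48% and 0.849%. Without ANP32B in the total, a choice made after seeing the data, the even share was 2.02%. Ranked by p-value, the best even ranks were 212 for SRRM1, 366 for SRSF11 and 94 for RBM25, and the best odd ranks 279 for SRRM2, 1 for RBM25 and 355 for PPIG. The share of the 5 genes was highest in the odd and lowest in the LacZ list in each of these settings. Placing each peak in 1 gene and both other overlap rules moved no count by over 1.5 times. The cause of these changes was not tested. Unknown library depth limits all comparisons of strength between lists.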
